A study of Sus scrofa with 8 samples.

Results

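The proteasome genes of pig liver were taken as every gene whose symbol begins with PSM, a letter from A to G and a number, and 47 of the 18103 genes measured were found in this way. Of these, 46 encode subunits, activators, an inhibitor or assembly factors of the proteasome. The remaining gene, PSMC3IP, matched by its symbol only, since it encodes a recombination cofactor named for binding PSMC3. The core subunits PSMA8 and PSMB11, known for their restriction to testis and thymus, were not among the genes listed.

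The proteasome is the large protease that breaks down proteins tagged with ubiquitin in the cytosol and nucleus. Its core is a barrel of alpha and beta subunits with the catalytic sites inside, and a regulatory cap of ATPases, scaffolds and ubiquitin receptors unfolds substrates and feeds them in. Interferon gamma is known to induce an alternative set of catalytic beta subunits (PSMB8, PSMB9 and PSMB10), which replace PSMB5, PSMB6 and PSMB7 in newly assembled cores to form the immunoproteasome, together with the activator pair PSME1 and PSME2. Leukocytes hold immunoproteasomes without induction, and the peptides made by these particles are loaded on MHC class I molecules.

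Hepatic RNA of male Landrace x Large White pigs was measured by RNAseq in 8 libraries. The 4 control libraries came from biopsies taken by laparotomy in healthy animals of 4 months of age (initial state). The 4 steatosis libraries came from the same animals at 6 months of age, sampled at euthanasia after 2 months on a steatotic diet rich in saturated fat, fructose, cholesterol and cholate and poor in methionine and choline. Each library was a pool of 2 pigs. Diet, age and mode of sampling therefore changed together and cannot be told apart, and a difference between pools does not show the spread between single pigs. In whole liver, more cells of a type and more RNA per cell cannot be told apart either.

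Levels were FPKM, which count fragments relative to transcript length and to all mapped fragments of the library, as deposited. Values of single libraries are given in the order of the pools 1 to 4, first before the diet (initial state) and then after it (steatosis). Read totals were not in the files used, but the smallest steps of FPKM placed the libraries within 94.9% to 100% of the deepest one. Hepatocyte markers were abundant throughout, so the liver label held. They summed to 91180 to 127200 FPKM in the initial state and 76500 to 91450 FPKM in steatosis. The 10 most abundant genes of each library held 22.8% to 27.9% of its summed FPKM in the initial state and 18.7% to 21.0% in steatosis. Pool 1 of the initial state stood apart, since 11 skeletal muscle markers summed to 3332 FPKM there against 1.68 to 25.26 FPKM in the other initial pools and 0.64 to 1.67 FPKM in steatosis. The 8 stomach mucosa markers likewise summed to 1518 FPKM in that pool and to 28.75 FPKM or less elsewhere. Pool 4 of the initial state also stood apart, because albumin (ALB) alone held 13% of its summed FPKM, against 6.22% to 8.89% in the other 7 libraries. Values without each of these pools are given for PSMB8, PSMB9, PSMB10, their catalytic pairs and PSME1. For some other proteasome genes, fits without 1 library are given, and for the lists of other genes none.

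All 47 genes passed the filter on low values (0.3 FPKM or more in no fewer than 4 of the 8 libraries). In limma with Benjamini-Hochberg adjustment over all 13175 genes tested, 7 of the 47 were higher in steatosis at an adjusted p below 0.05 and 0 were lower. The 7 were PSMB8, PSMB9, PSMB10, PSME1, PSME2, PSMG4 and PSMC3IP. The background was high, since 26.7% of all genes tested were higher and 2.28% were lower. At an unadjusted p below 0.05, 11 of the 47 genes were higher and 1 (PSMD1) was lower. Shares of all genes were not counted at unadjusted limits, here or below. The states did not overlap for 7 of the 47 genes (PSMB5, PSMB8, PSMB9, PSMB10, PSME1 and PSMG4 higher, PSMD1 lower), against 32.1% of all genes tested (29.6% higher and 2.53% lower). At the stricter limits of the study's gene list, an adjusted p below 0.01 and a log2 fold change beyond 1, 0 of the 47 passed, against 6.01% higher and 0.334% lower. The median log2 fold change was 0.05 for the 47 genes and 0.25 for all genes tested, and most proteasome genes lay below the median of all genes on this scale. The calls were therefore read against the background and against other ways of scaling the libraries, which are described after the single groups of subunits.

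**Figure D1:**
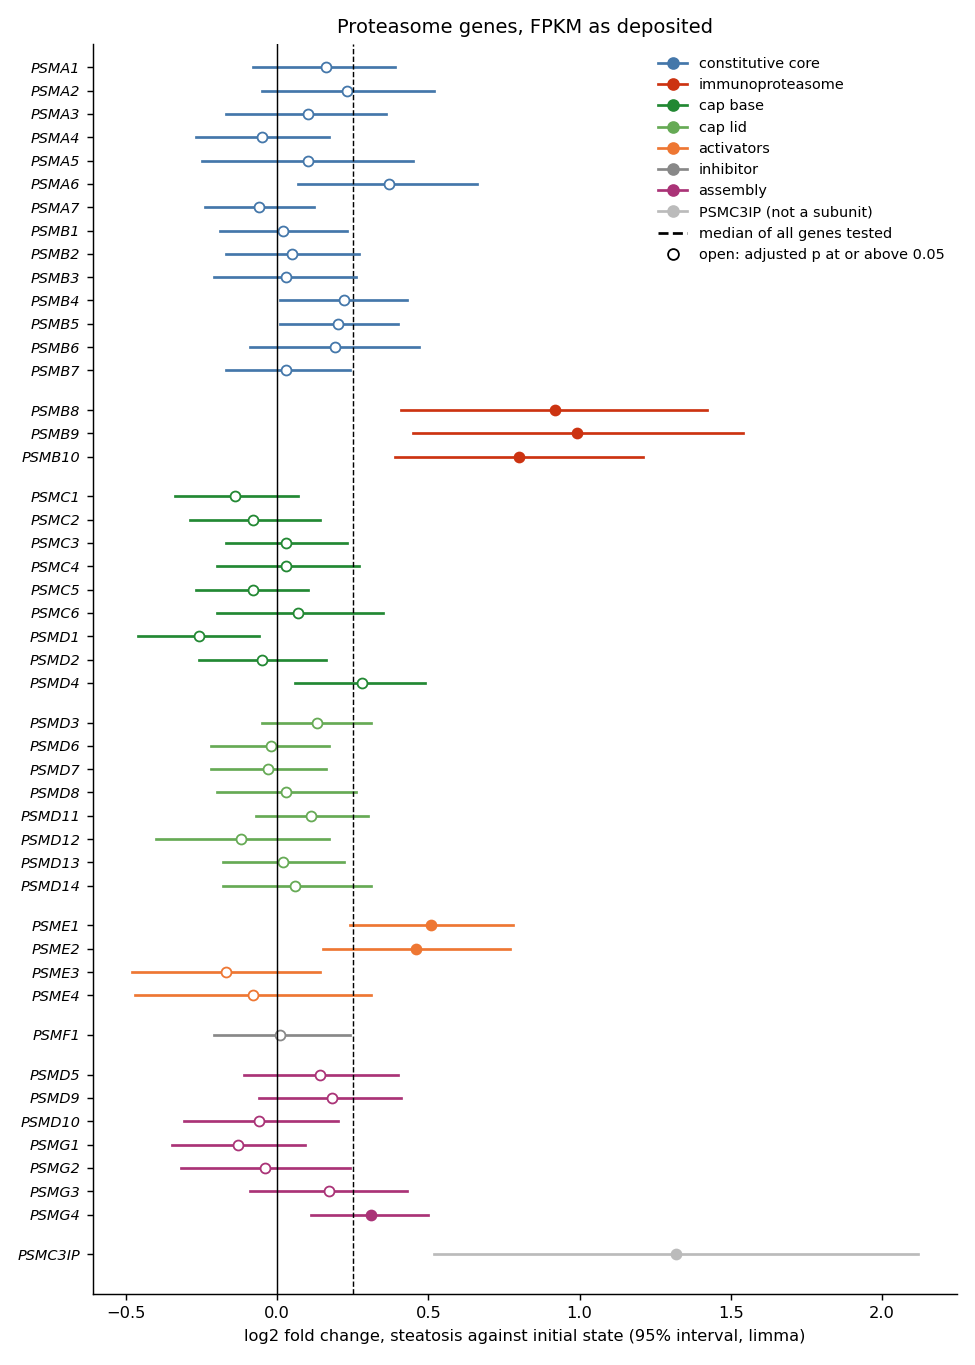
Log2 fold change of steatosis against the initial state for the 47 proteasome genes, with 95% limma intervals, on FPKM as deposited and coloured by group of subunits. Filled points passed an adjusted p of 0.05, and the dashed line marks the median of all genes tested (0.25), to the left of which most core and cap subunits lie.

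The inducible catalytic subunits were the genes with the largest differences among the proteasome subunits. PSMB8, which carries the chymotrypsin-like site of the immunoproteasome, had 14.1, 19.42, 20.42 and 30.97 FPKM before the diet and 47.63, 32.92, 31.63 and 44.72 FPKM after it. Every steatosis pool was above every initial pool, but the lowest of them exceeded the initial pool 4 only narrowly. The mean of 21.2 ± 7.06 FPKM became 39.2 ± 8.13 FPKM (SD, n = 4). This was a log2 fold change of 0.92 ± 0.23 (SE) with an adjusted p of 0.0152 in limma.

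PSMB9, with the inducible site that replaces PSMB6, was the least abundant of the 3, with 5.34, 7.87, 7.39 and 13.66 FPKM before the diet and 18.87, 14.67, 14.09 and 17.62 FPKM after it. The groups again did not overlap, and again the initial pool 4 came closest to steatosis. Its mean of 8.57 ± 3.57 FPKM became 16.3 ± 2.3 FPKM (SD, n = 4), and the log2 fold change was 0.99 ± 0.24 (SE, limma adjusted p = 0.0144).

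PSMB10, the inducible trypsin-like subunit, had 17.77, 30.92, 26.2 and 33.1 FPKM before the diet and 51.63, 42.47, 40.62 and 49.29 FPKM after it. No steatosis pool fell within the range of the initial state. The mean of 27.0 ± 6.79 FPKM became 46.0 ± 5.29 FPKM (SD, n = 4). In limma this gave a log2 fold change of 0.80 ± 0.18 (SE) at an adjusted p of 0.0107. Together the 3 subunits summed to 56.8 ± 16.6 FPKM in the initial state and 102 ± 15.7 FPKM in steatosis (1.79-fold).

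PSMB8 and PSMB9 alternate with the genes of the peptide transporter TAP on chromosome 7 of the Sscrofa11.1 assembly in RefSeq, in the MHC region of the pig. The order is TAP2 (25045085 to 25056915), PSMB8 (25058456 to 25061666), TAP1 (25062772 to 25071989) and PSMB9 (25072133 to 25077508). PSMB10 is elsewhere, on chromosome 6 (28544910 to 28547609). A gap of 143 bp separates TAP1 from PSMB9.

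The constitutive partners differed less. PSMB5, the standard chymotrypsin-like subunit, had 28.42, 33.86, 30.93 and 32.92 FPKM before the diet and 38.49, 37.0, 34.52 and 35.07 FPKM after it. Its groups did not overlap, yet the difference was small (log2 fold change 0.20 ± 0.09, SE) and did not pass in limma (adjusted p = 0.11). An exact two-sided permutation test on PSMB5 alone gave the smallest p that 4 against 4 libraries allow (p = 0.0286).

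PSMB6, the standard caspase-like subunit, had 41.86, 50.78, 47.92 and 64.56 FPKM before the diet and 60.96, 57.54, 55.13 and 57.91 FPKM after it. Its highest value of all was that of the initial pool 4, and the log2 fold change of 0.19 did not pass (95% interval -0.09 to 0.47, limma adjusted p = 0.274). PSMB7, the standard trypsin-like subunit, had 72.12, 74.3, 75.3 and 86.9 FPKM before the diet and 81.79, 71.05, 81.41 and 81.24 FPKM after it. The PSMB7 groups overlapped almost fully (log2 fold change 0.03, interval -0.17 to 0.24, limma adjusted p = 0.809).

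**Figure D2:**
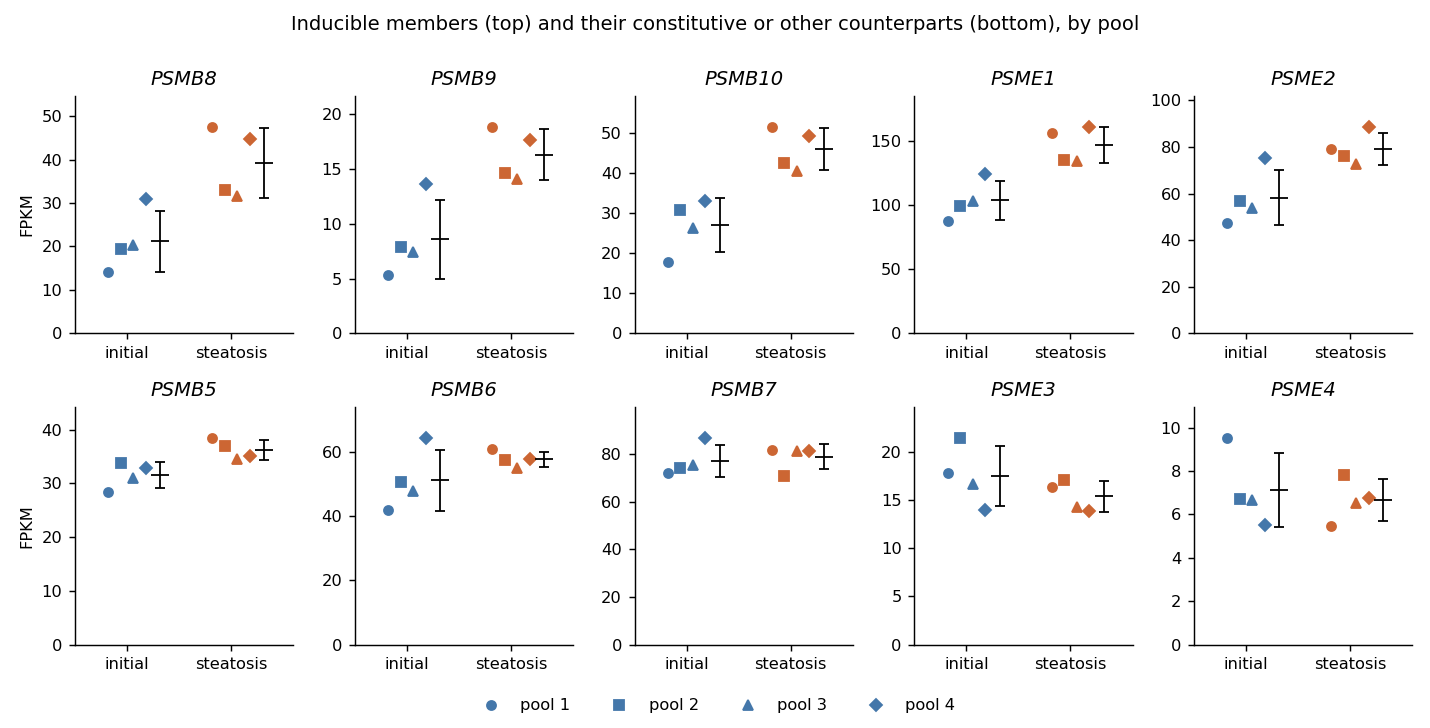
FPKM of the 5 inducible proteasome genes (top) and of PSMB5, PSMB6, PSMB7, PSME3 and PSME4 (bottom) in each pool, with mean and SD (n = 4) in black and vertical axes that start at 0. PSMB8, PSMB9, PSMB10 and PSME1 in the top row and PSMB5 in the bottom row show no overlap between states. The states overlap for PSME2 in the top row and for PSMB6, PSMB7, PSME3 and PSME4 in the bottom row.

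The share of the inducible subunit within each catalytic pair was then compared, since a ratio within a library does not depend on how libraries are scaled to each other. PSMB8 made up 33.2%, 36.4%, 39.8% and 48.5% of the summed FPKM of PSMB8 and PSMB5 in the initial pools and 55.3%, 47.1%, 47.8% and 56.0% in steatosis. The initial pool 4 overlapped steatosis here. The mean log2 ratio of PSMB8 to PSMB5 went from -0.62 ± 0.39 to 0.09 ± 0.28 (SD, n = 4), a 1.64-fold difference that did not pass in an exact two-sided permutation test (p = 0.0857, adjusted p = 0.0857 over the 3 pairs).

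PSMB9 held 11.3%, 13.4%, 13.4% and 17.5% of its pair with PSMB6 in the initial state and 23.6%, 20.3%, 20.4% and 23.3% in steatosis. All steatosis shares were above all initial shares. The mean log2 ratio rose from -2.63 ± 0.3 to -1.83 ± 0.15 (SD, n = 4), which was 1.74-fold (exact two-sided permutation p = 0.0286, adjusted p = 0.0429).

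PSMB10 held 19.8%, 29.4%, 25.8% and 27.6% of its pair with PSMB7 in the initial state and 38.7%, 37.4%, 33.3% and 37.8% in steatosis. The groups did not overlap, and the low initial value was that of pool 1. The mean log2 ratio rose from -1.55 ± 0.33 to -0.78 ± 0.15 (SD, n = 4), which was 1.70-fold (exact two-sided permutation p = 0.0286, adjusted p = 0.0429).

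The ratio was higher in steatosis in 4 of 4 pool numbers for each of the 3 pairs, by 0.44 to 1.31, 0.52 to 1.26 and 0.52 to 1.35 on the log2 scale for the PSMB8, PSMB9 and PSMB10 pairs. Without the initial pool 1 the mean differences were 0.59, 0.70 and 0.61, so they remained positive without the library that held muscle and stomach transcripts, and without the initial pool 4 they were 0.89, 0.94 and 0.82. Even in steatosis PSMB9 and PSMB10 stayed below their constitutive partners, whereas PSMB8 and PSMB5 were about level. These shares are of transcripts per length, and the subunits built into proteasomes were not measured.

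**Figure D3:**
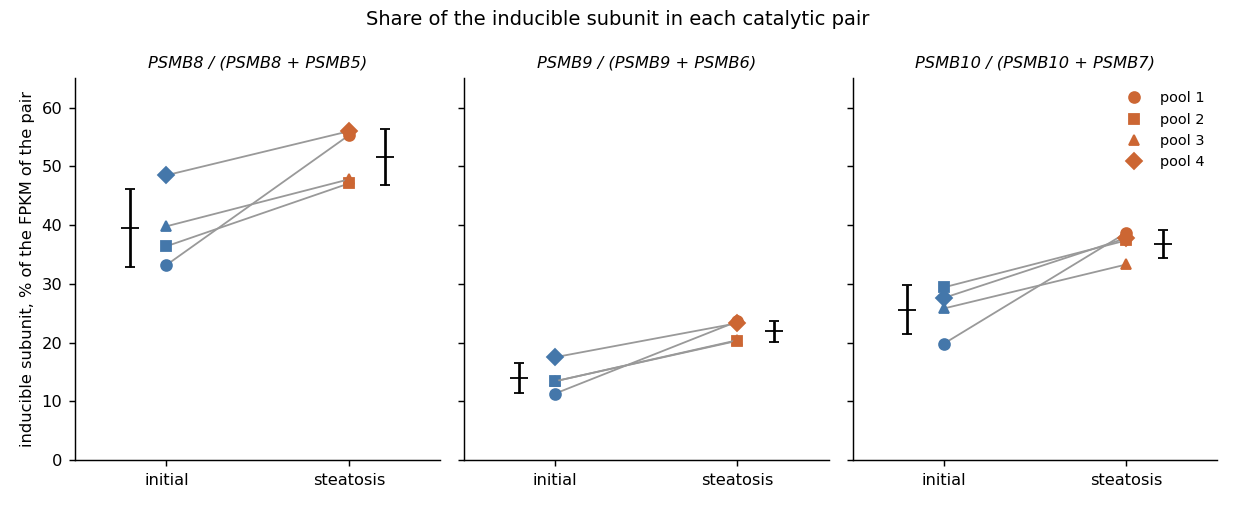
Share of the inducible subunit in the summed FPKM of each catalytic pair, per pool, with lines joining pools of the same number and black marks for mean and SD (n = 4). Every line rises, and the PSMB8 share of the initial pool 4 (48.5%) exceeds those of the steatosis pools 2 and 3.

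The activators divided by type. PSME1 and PSME2 encode the alpha and beta subunits of the interferon-inducible ring that opens the core without ATP or ubiquitin. PSME1, the most abundant of the 47 genes, had 87.61, 99.67, 103.28 and 124.68 FPKM before the diet and 156.19, 135.7, 134.26 and 161.44 FPKM after it. There was no overlap, and the log2 fold change was 0.51 ± 0.12 (SE, limma adjusted p = 0.0122). It was 0.43 without the initial pool 1 (adjusted p = 0.0254) and 0.60 without the initial pool 4 (adjusted p = 0.00464). The annotated ends of PSME1 (chromosome 7, 75161830 to 75164531) and EMC9 overlap in Sscrofa11.1, and whether counting used strand is not given in the sources used here, so reads at that end are uncertain.

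PSME2, which lies close to PSME1 (chromosome 7, 75154570 to 75157871), had 47.43, 56.76, 53.77 and 75.19 FPKM before the diet and 79.07, 76.06, 72.89 and 88.74 FPKM after it. The initial pool 4 exceeded the steatosis pool 3. The log2 fold change was 0.46 ± 0.14 (SE, limma adjusted p = 0.0332), and this call was lost in 7 of the 8 fits that left out 1 library, with adjusted p up to 0.094. Among these fits it passed only without the initial pool 4 (log2 fold change 0.59, adjusted p = 0.0044).

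PSME3, the nuclear activator of the same family, had 17.81, 21.47, 16.71 and 13.93 FPKM before the diet and 16.39, 17.08, 14.29 and 13.82 FPKM after it. The groups overlapped, and the log2 fold change of -0.17 did not pass (95% interval -0.48 to 0.14, limma adjusted p = 0.376). PSME4, a large activator known for acting on nuclear proteasomes and histones, had 9.53, 6.73, 6.68 and 5.5 FPKM before the diet and 5.48, 7.83, 6.53 and 6.75 FPKM after it. Pool 1 held both the highest initial and the lowest steatosis value of PSME4, and its log2 fold change was -0.08 (interval -0.47 to 0.31, limma adjusted p = 0.757).

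The inhibitor PSMF1, which binds the core and competes with activators, had 40.2, 46.15, 44.73 and 47.33 FPKM before the diet and 48.87, 40.67, 41.55 and 49.34 FPKM after it. The states interleaved, with a log2 fold change of 0.01 (95% interval -0.21 to 0.24, limma adjusted p = 0.932).

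Among the 14 constitutive core subunits, 0 passed the limma test in either direction on FPKM as deposited. The background at that adjusted limit was 26.7% higher and 2.28% lower. At an unadjusted p below 0.05, 3 of the 14 (PSMA6, PSMB4 and PSMB5) were higher and 0 lower. The log2 fold changes of the 14 ranged from -0.06 to 0.37 with a median of 0.10. Their 95% intervals together spanned -0.27 to 0.66, so changes of that size cannot be set aside. Summed core levels were 730 ± 76.3 FPKM in the initial state and 778 ± 38.4 FPKM in steatosis (SD, n = 4). In the initial state the mean level of single core subunits ran from 23.1 FPKM for PSMA3 to 97.1 FPKM for PSMA7, although each occupies the same number of positions in the assembled core.

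PSMA6, an alpha ring subunit, had 46.87, 48.41, 45.16 and 67.07 FPKM before the diet and 69.77, 61.76, 61.54 and 71.48 FPKM after it. The initial pool 4 lay among the steatosis pools and the other initial pools lay below them. Its log2 fold change of 0.37 did not pass (limma adjusted p = 0.0625) but passed with the pool number as a block (adjusted p = 0.0389) and without the initial pool 4. With that block 8 of the 47 genes were higher and 0 lower, against 25.7% and 2.6% of all genes tested. Over all alternatives its adjusted p ran from 0.005 to 0.762.

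PSMB4, a non-catalytic beta subunit, had 50.85, 55.92, 55.49 and 62.46 FPKM before the diet and 72.69, 63.94, 64.35 and 60.49 FPKM after it (log2 fold change 0.22, limma adjusted p = 0.109). Only the steatosis pool 4 fell within the initial range. PSMB1, the core subunit with the highest adjusted p (0.879), had 72.48, 81.91, 72.17 and 85.13 FPKM before the diet and 87.0, 79.31, 73.7 and 76.13 FPKM after it. The other alpha subunits PSMA1, PSMA2, PSMA3, PSMA4, PSMA5 and PSMA7 and the other beta subunits PSMB2 and PSMB3 had adjusted p values of 0.19 or more.

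The 17 cap subunits likewise gave 0 calls in either direction in limma, against 26.7% higher and 2.28% lower of all genes tested. At an unadjusted p below 0.05, 1 was higher (PSMD4) and 1 lower (PSMD1). With median ratio scaling, described below, 0 of the 17 were called higher and 5 lower, against 11.4% and 10.1% of all genes tested. On FPKM as deposited the log2 fold changes of the 17 ran from -0.26 to 0.28 with a median of 0.02. Summed cap levels were 515 ± 30.9 FPKM in the initial state and 516 ± 12.6 FPKM in steatosis (SD, n = 4). The 6 ATPases PSMC1 to PSMC6, which form the unfolding ring, stayed within -0.14 to 0.07, and PSMC3 among them had the highest adjusted p of the cap base (0.843).

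PSMC3 had 40.45, 40.1, 34.89 and 41.4 FPKM before the diet and 42.94, 37.31, 38.82 and 40.54 FPKM after it. The 2 states covered about the same range.

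PSMD1, a large scaffold of the cap base, had 21.18, 23.72, 19.98 and 21.38 FPKM before the diet and 18.51, 19.17, 17.61 and 16.65 FPKM after it. It was the 1 subunit whose steatosis pools all lay below the initial pools. The log2 fold change of -0.26 ± 0.09 (SE) missed the limit in limma (adjusted p = 0.0572).

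PSMD4, a ubiquitin receptor of the cap, had 28.42, 27.47, 25.96 and 29.38 FPKM before the diet and 36.17, 33.63, 29.18 and 36.34 FPKM after it. The steatosis pool 3 overlapped the initial pool 4, and the log2 fold change of 0.28 missed the limit (limma adjusted p = 0.0555). Without the steatosis pool 3 it passed. PSMD2, the other large scaffold of the base, had a log2 fold change of -0.05.

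In the lid, the part of the cap that cuts ubiquitin chains off substrates, PSMD3 had 46.73, 45.37, 46.5 and 43.1 FPKM before the diet and 46.26, 48.47, 52.71 and 51.67 FPKM after it. PSMD11 had 27.68, 26.79, 24.24 and 24.69 FPKM before the diet and 26.84, 28.21, 27.68 and 29.08 FPKM after it. Both of these structural subunits overlapped between states, and their limma adjusted p values (0.245 and 0.325) were the lowest of the lid. PSMD13 had 24.34, 25.73, 21.89 and 27.46 FPKM before the diet and 25.68, 25.05, 25.24 and 24.5 FPKM after it, with the highest adjusted p of the lid (0.886). PSMD14, the deubiquitinase of the lid, and its structural partner PSMD7 had log2 fold changes of 0.06 and -0.03, and PSMD6, PSMD8 and PSMD12 stayed within -0.12 to 0.03.

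Of the 7 assembly factors, 1 was higher and 0 lower, against 26.7% and 2.28% of all genes tested. PSMG4, a chaperone of the core rings, had 22.48, 21.82, 22.93 and 22.7 FPKM before the diet and 28.83, 24.53, 28.89 and 29.34 FPKM after it. The initial pools lay very close together and all steatosis pools lay above them, pool 2 by the least. The log2 fold change was 0.31 ± 0.09 (SE, limma adjusted p = 0.0274), and the call was lost in 4 of the 8 fits that left out 1 library (adjusted p up to 0.0859). It was also lost with median ratio scaling and with scaling to the constitutive core, both described below (limma adjusted p = 0.878 and 0.357).

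PSMD9, a chaperone of the cap base, had 9.59, 10.89, 9.62 and 11.63 FPKM before the diet and 13.13, 11.37, 11 and 11.72 FPKM after it (limma adjusted p = 0.224). PSMG2, the partner of PSMG1 in building the alpha ring, had 11.02, 12.34, 9.41 and 9.95 FPKM before the diet and 12.36, 9.74, 9.21 and 10.21 FPKM after it (adjusted p = 0.823). For both, values of the 2 states overlapped. The other base chaperones PSMD5 and PSMD10 and the core chaperones PSMG1 and PSMG3 had adjusted p values of 0.285 or more.

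PSMC3IP was barely detected, with 0.33, 0.09, 0.18 and 0.21 FPKM before the diet and 0.8, 0.76, 0.28 and 0.84 FPKM after it. It passed the filter mainly through steatosis, where it was high, so a difference was partly built into its passing. The log2 fold change was 1.32 ± 0.36 (SE, limma adjusted p = 0.0219), and the call was lost in 4 of the 8 fits that left out 1 library (adjusted p up to 0.0653). The steatosis pool 3 lay within the initial range.

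The pools had an order that was shared by the inducible genes. Among PSMB8, PSMB9, PSMB10, PSME1 and PSME2, the initial pool 1 was lowest and the initial pool 4 highest in 5 of 5 genes, and in steatosis pool 3 was lowest in 5 of 5. All 5 were higher in steatosis within each of the 4 pool numbers. The difference was largest in pool 1, at 1.75, 1.80, 1.53, 0.83 and 0.74 on the log2 scale for the 5 genes in that order. Without the initial pool 1 the log2 fold changes of PSMB8, PSMB9 and PSMB10 were 0.74, 0.80 and 0.61 (limma adjusted p = 0.0269, 0.024 and 0.00769), and without the initial pool 4 they were 1.12, 1.25 and 0.91 (adjusted p = 0.00411, 0.00137 and 0.00889). Over all alternatives the adjusted p of these 3 genes ran from 0.00411 to 0.115, 0.00137 to 0.103 and 0.00769 to 0.0998.

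The coefficient of variation between initial pools had a median of 33.3% for the 3 immunoproteasome subunits, 10.9% for the constitutive core and 9.31% for the cap. The initial pool 4 also held the highest value of 12 of the 14 constitutive core subunits, and the initial pool 3 the lowest value of 15 of the 17 cap subunits. In steatosis, pool 1 was highest for 12 of the 14 core subunits.

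How the libraries are scaled to each other changed which proteasome genes were called. Median ratio scaling brings the median log2 fold change of all genes tested from 0.25 to -0.02. With it, 0 of the 47 genes were called higher and 8 were called lower (PSMA7, PSMC1, PSMC5, PSMD1, PSMD2, PSMD6, PSME3 and PSMG1). The background then was 11.4% higher and 10.1% lower, and the share of higher genes among all genes called was 52.9% in place of 92.1%. Of the 47 genes, 4 were higher and 16 were lower at an unadjusted p below 0.05 with median ratio scaling. Cap subunits made up 9 of these 16. PSMB8, PSMB9 and PSMB10 kept log2 fold changes of 0.64, 0.72 and 0.52 under this scaling, with limma adjusted p of 0.115, 0.103 and 0.0998.

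PSMD1 had the largest decrease of the subunits under median ratio scaling (log2 fold change -0.54, limma adjusted p = 0.005), followed by PSME3 (-0.45, adjusted p = 0.0169). Over all alternatives the adjusted p ran from 0.00486 to 0.158 for PSMD1 and from 0.0163 to 0.707 for PSME3. PSMD1, PSMC1 and PSME3 were lower in steatosis in each of the 4 pool numbers also on FPKM as deposited.

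The median ratio factor of the initial pool 4, 0.7965, was the one farthest from 1, and the other 7 factors lay between 0.9139 and 1.115. With that pool left out, an alternative chosen after seeing the data, 6 of the 47 genes were higher (PSMA6, PSMB8, PSMB9, PSMB10, PSME1 and PSME2) and 6 were lower (PSMA7, PSMC1, PSMC5, PSMD1, PSME3 and PSMG1), against backgrounds of 12.2% and 9.68%. With scaling to the constitutive core, also chosen after seeing the data, 5 were higher (PSMB8, PSMB9, PSMB10, PSME1 and PSMC3IP) and 0 were lower, against 11.1% and 2.07%. At an unadjusted p below 0.05, 7 were higher and 1 was lower under the core scaling. Under it PSME1 had a log2 fold change of 0.39 and PSME2 of 0.35.

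**Figure D4:**
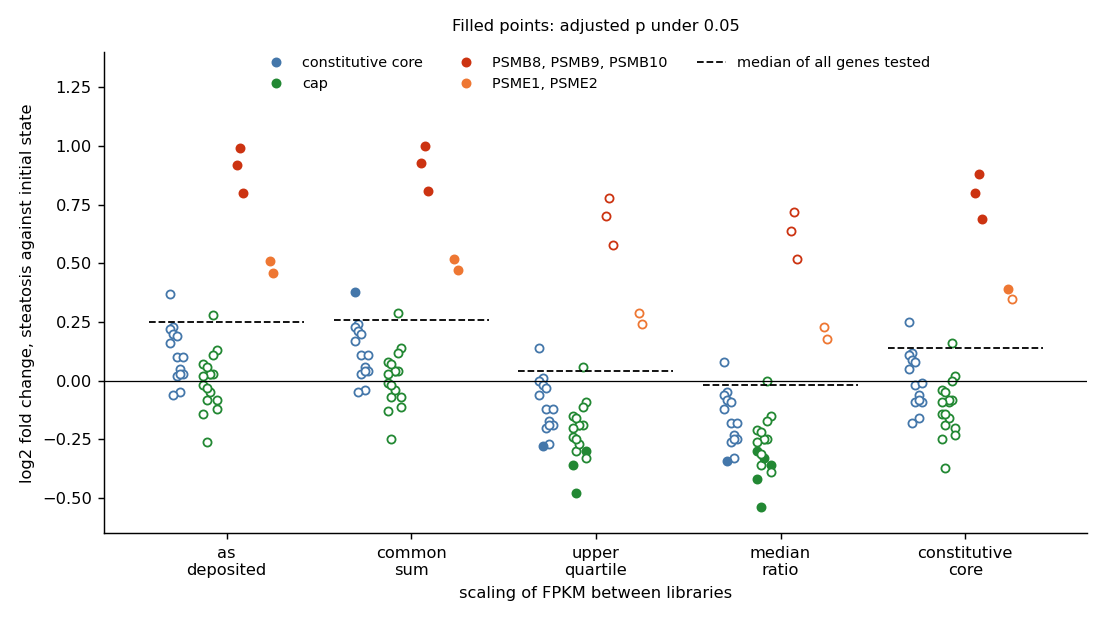
Log2 fold change of steatosis against the initial state for core, cap, immunoproteasome and PSME1 and PSME2 genes under 5 scalings of FPKM between libraries, with filled points at an adjusted p below 0.05 and dashed lines at the median of all genes tested. The 3 immunoproteasome genes stay above the dashed line in every scaling but lose their calls under upper quartile and median ratio scaling, where cap genes are called lower.

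Genes that act beside the proteasome were counted from lists chosen with earlier results of these data known. The class I presentation list held 18 entries, with B2M counted under both of its gene identifiers. Of these, 10 were higher and 0 lower, against 26.7% and 2.28% of all genes tested. The median log2 fold change of the list was 0.74 beside 0.25 for all genes tested. With median ratio scaling 4 were higher and 0 lower, against 11.4% and 10.1%. SLA-8, SLA-3 and SLA-1, MHC class I heavy chains, had log2 fold changes of 1.03, 1.16 and 1.09 (limma adjusted p = 0.00207, 0.00282 and 0.00386). Near-identical heavy chain genes can share reads, so their single values are uncertain. B2M, the light chain, was listed under 2 gene identifiers with log2 fold changes of 1.08 and 0.98.

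TAP1, the neighbour of PSMB9, had 7.04, 8.39, 8.63 and 13.8 FPKM before the diet and 14.01, 12.17, 11.66 and 19.52 FPKM after it. As for PSME2, the initial pool 4 overlapped steatosis, and the log2 fold change of 0.61 did not pass (limma adjusted p = 0.0638) but passed with the pool number as a block (adjusted p = 0.0117). TAP2, on the other side of PSMB8, rose from 6.9 ± 1.81 to 12.1 ± 1.45 FPKM (SD, n = 4) with a log2 fold change of 0.83 (limma adjusted p = 0.00724).

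Of 15 genes of the interferon gamma response, 14 could be tested, 9 were higher and 1 (SOCS1, a feedback inhibitor of cytokine signalling) was lower, against 26.7% and 2.28% of all genes tested. The list gave 4 higher and 1 lower both with median ratio and with core scaling. The backgrounds were 11.4% higher and 10.1% lower with the former, and 11.1% and 2.07% with the latter. With pool number as a block, 11 were higher and 1 lower, against 25.7% and 2.6% of all genes tested. On FPKM as deposited, the 4 with the lowest adjusted p were the receptor chains IFNGR1 and IFNGR2, with log2 fold changes of 0.73 and 0.61, the transcription factor IRF8 (0.86) and the guanylate-binding protein GBP1 (0.97). IFNG itself did not pass the filter on low values.

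Of 20 leukocyte markers listed, 19 were tested, 11 were higher and 2 (the B cell genes MS4A1 and CD79A) were lower, against 26.7% and 2.28% of all genes tested, and none was at 0 throughout. The T cell markers CD3E and CD2 and the markers CORO1A, C1QA, CD163 and CD79B did not pass. The summed level of the 20 markers was 786 to 1081 FPKM in the initial state and 1372 to 1588 FPKM in steatosis. The 4 with the lowest adjusted p were MARCO, a macrophage scavenger receptor, TYROBP and LAPTM5, leukocyte signalling and lysosomal proteins, and NKG7 of cytotoxic lymphocytes, with log2 fold changes of 3.33, 1.44, 1.47 and 1.36. With median ratio scaling 8 of the markers were higher and 3 lower, against 11.4% and 10.1% of all genes tested. Among the initial pools the summed level was lowest in pool 1 and highest in pool 4, as for the inducible proteasome genes. Most of this sum came from C1QA, C1QB and C1QC, with initial means of 200, 293 and 227 FPKM out of 932 FPKM. The order of the sum is therefore mainly theirs. Of the 20 markers, 17 were lowest in the initial pool 1, but 12 were highest in the initial pool 3 and 5 (AIF1, C1QA, C1QB, C1QC and CD163) in the initial pool 4. The part of leukocyte content in the proteasome results was not tested.

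**Figure D5:**
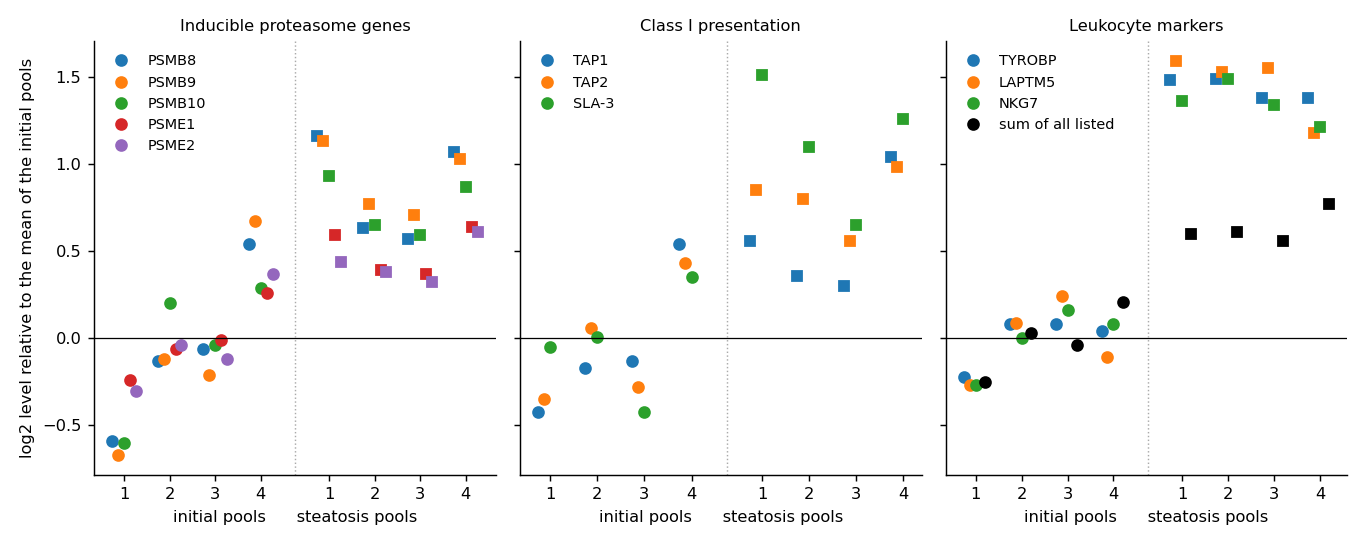
Log2 level in each pool relative to the mean of the initial pools for the 5 inducible proteasome genes, for TAP1, TAP2 and SLA-3, and for 3 leukocyte markers and the sum of all 20 listed (black), with circles for the initial state and squares for steatosis. The initial pool 4 stands above the other initial pools in the first and second panels, by 0.67 above the mean for PSMB9 and 0.54 for TAP1, and for the marker sum (0.21), but not for the 3 single markers drawn. Most of the marker sum comes from C1QA, C1QB and C1QC.

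Regulators of proteasome synthesis and the ubiquitin supply were counted from such lists too, beside 26.7% higher and 2.28% lower of all genes tested. Of 11 other proteasome proteins listed, AKIRIN2, which carries proteasomes into the nucleus, and PITHD1, a binding partner of the proteasome, were higher (log2 fold changes 0.65 and 0.34, limma adjusted p = 0.00213 and 0.0209), and 0 were lower. With median ratio scaling AKIRIN2 was the 1 gene higher and 3 were lower (ADRM1, UCHL5 and ZFAND2A). The background then was 11.4% higher and 10.1% lower. NFE2L1, the transcription factor that restores proteasome subunits when degradation falls short, had 29.97, 27.5, 32.66 and 22.62 FPKM before the diet and 27.37, 30.15, 29.76 and 32.33 FPKM after it (log2 fold change 0.10, limma adjusted p = 0.576). Its states overlapped fully, and of its 6 pathway genes listed only NFE2L2, the factor of the antioxidant response, was higher (0.60, adjusted p = 0.00975), and 0 were higher or lower with median ratio scaling.

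Of 13 ubiquitin genes and conjugating enzymes, 2 were higher and 0 lower. RPS27A, which encodes ubiquitin joined to a ribosomal protein, was one of them (log2 fold change 0.31, limma adjusted p = 0.0303). Of 13 genes of VCP and the shuttle factors, which extract substrates and bring them to the proteasome, 3 were higher (RAD23B, UBXN1 and UBQLN4) and 0 lower. Neither count exceeded the background of 26.7%. With median ratio scaling the lists gave 0 higher each and 1 and 3 lower, against 11.4% and 10.1% of all genes tested. POMP, the maturation factor of the core, was not among the symbols listed.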

How the data were processed

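Poly-A RNA of 8 pools was sequenced in pairs of 100 base reads. Per the labels and the study's methods, the authors aligned reads to Sscrofa11.1 with HISAT2 2.0.4, added assembled new transcripts to the reference, mapped the reads to these with Bowtie2 2.2.5 and estimated FPKM with RSEM 1.2.12. The deposited FPKM covered 17778 known genes and 325 new transcripts. Coordinates are those of RefSeq for Sscrofa11.1, matched by gene identifier for 47 of 47 genes. The authors' 4 comparisons of single pools, which hold expression values, fold changes and p-values of their own, were left out.

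The 13175 genes that reached 0.3 FPKM in 4 or more of 8 libraries were tested on log2(FPKM + 0.1), which understates the change of low genes, with limma 3.58.1 (R 4.3.3, trended variance). Called means an adjusted p below 0.05 (Benjamini-Hochberg). Catalytic pairs were compared by exact two-sided permutation (scipy 1.17.1). On simulated data with 13009 genes, the fit found 16.7% of genes changed by 0.5 on the log2 scale, 70% at 1 and 98% at 2, and called 9 unchanged genes. Only 46 to 50 genes were changed at each size there, and spreads were shuffled between genes. The shares found therefore need not hold for the proteasome genes. Libraries of the same pool number deviated together (r = 0.16, 0.35, 0.32 and 0.25), and the authors compared pools number by number, so the pool number was used as a block in an alternative. Other scalings, filters, pseudocounts and fits without each library were alternatives too.

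The members and lists were chosen with earlier results of these data known. Values in every library are given for the 3 immunoproteasome subunits, their partners, the activators, PSMF1 and PSMC3IP, and in each other group for the 2 members with the lowest adjusted p and the 1 with the highest. Of each other list at most 4 genes with the lowest adjusted p were named, plus TAP1, TAP2, B2M, NFE2L1 and POMP. Another gene of this rule is not reported here. Others that the text singles out from these lists, such as SOCS1, IFNG, MS4A1, CD79A, ADRM1 and the C1Q genes, were chosen after their values were seen. P-values measure the spread between pools, not between single pigs.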

Additional observations from a re-analysis of the deposited data

Results flagged for a closer look

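In 7 of the 100 groups of 4 pools checked, 1 pool lay far from the other 3 by Dixon's criterion at the 95% level, where about 5 are expected by chance. PSMA6 had 67.07 FPKM in the initial pool 4, against 45.16 to 48.41 FPKM in the other initial pools. PSMD2 was high in the initial pool 2 with 39.92 FPKM and low in the steatosis pool 4 with 30.75 FPKM. In the steatosis pool 2, PSMA7 (89.74 FPKM), PSMB7 (71.05 FPKM) and PSMG4 (24.53 FPKM) were low. PSMC3IP had 0.28 FPKM in the steatosis pool 3, against 0.76 to 0.84 FPKM in the other steatosis pools.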

How the results depend on the processing

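The 7 genes called higher became 0 with upper quartile or median ratio scaling, 1 with median ratio scaling and the pool block, and 0 at an adjusted p below 0.01 with a log2 fold change beyond 1. Fits without 1 library gave 4 to 10, the lowest without the initial pool 2 or the steatosis pools 1 or 4 and the highest without the initial pool 4. Genes called lower, 0 as deposited, were 6 with upper quartile scaling, 8 with median ratio scaling, 5 with median ratio scaling and the block, and 6 with median ratio scaling and the initial pool 4 left out. The counts over all 13175 genes tested moved too. They were 3519 higher and 300 lower as deposited and 1728 and 959 with upper quartile scaling. With median ratio scaling they were 1501 and 1336, and 1492 and 1124 when the block was added. Fits without 1 library gave 2324 to 3389 higher and 173 to 395 lower among all genes tested. The 3 immunoproteasome calls became 0 with upper quartile scaling, with median ratio scaling, with the latter and the block, and at the stricter limit, and stayed 3 without each library in turn. For the constitutive core, 1 subunit (PSMA6) was called higher with common sum scaling, with the pool block and with median ratio scaling without the initial pool 4, and 0 to 3 in fits without 1 library (3 without the initial pool 4), while PSMA7 was called lower with upper quartile scaling and with median ratio scaling, with or without that pool. For the cap, 0 to 1 were called without 1 library (1 without the steatosis pool 3). The pairing of pools by number as a block gave 8 of the 47 genes higher and changed no other call among them than that of PSMA6. No value that was called changed sign, but 24 uncalled genes did under median ratio scaling. The cause of these changes was not tested. The ratios of catalytic pairs stayed within 0.59 to 0.89, 0.70 to 0.94 and 0.61 to 0.86 without 1 library. A sign-flip test over 4 pool numbers cannot go below p = 0.125 (exact), and 3 against 4 libraries cannot go below 0.0571 by exact permutation. Read totals were not in the files used, and 4 pools per state limit what can be called. The fit found 16.7% of simulated log2 changes of 0.5, but far fewer genes were changed there than were called here. That share need not hold for these data.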
